A study of Mus musculus with 20 samples.

Results

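The genes described here encode Tudor domain proteins, most of them known from germ granules. The list held 10 genes, Tdrd1, Tdrd3, Tdrd5, Tdrd6, Tdrd7, Tdrd9, Tdrd12, Tdrkh, Rnf17 and Stk31. Every probe set whose platform annotation gave 1 of these symbols was taken, whatever its values. This gave 16 probe sets of 9 genes, out of 45101 probe sets on the array. Tdrd6 had no listed probe set and is not analysed here. Of the 16 probe sets, 15 passed the filter on low values and entered the tests, which ran over 37292 probe sets. The study followed the mouse testis after birth with 20 arrays. The 10 groups were testes on day 0 (birth), days 3, 6, 8 and 10, days 14, 18 and 20, and days 30 and 35, with 2 arrays for each day. The sample was total RNA of whole testis, with no cell sort, and the labels used here give no strain, genotype or treatment. They leave unsaid whether both arrays of a day come from separate animals, and each p-value therefore reflects the spread between these arrays alone, which may be technical.

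Tudor domains are folds that bind methylated arginine or lysine on other proteins. In male germ cells many Tudor proteins bind the methylated arginines of PIWI proteins, which carry piRNAs, the small RNAs that silence transposons. Tudor proteins also build the cytoplasmic granules in which piRNAs are made or stored, namely the intermitochondrial cement of fetal germ cells and spermatocytes and the chromatoid body of spermatids. In the mouse, germ cells of the newborn testis are arrested, divide again as spermatogonia in the first week, enter meiosis in the second and form round spermatids in the third.

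The values are probe set intensities on a linear scale, as deposited, and they have no unit beyond brightness. Probe sets differ in their affinity, so a level is compared only with the same probe set on another day. Array medians ran from 29.4 to 43.4, and the duplicate arrays had Pearson's r between 0.934 and 0.981 across probe sets. The 25th percentile of the arrays was 7.48 to 9.48 on days 0 to 14 and 12.3 to 16.2 on days 18 to 35, so low intensities are not fully comparable across that step. The second array of day 18 carries day 0 in 1 of its labels. Its mean absolute log2 difference was 0.385 from the first array of day 18, against 0.883 and 0.877 from the arrays of day 0, and it was analysed as day 18. The summed intensity of 3 germ cell markers (Ddx4, Dazl and Dnd1) lay between 1411 and 5504 on all arrays. The sum of 5 meiotic markers had its lowest value, 259, on day 3 and its highest, 7944, on day 18. The sum of 6 spermatid markers did not exceed 90.7 up to day 14, was 456 to 486 on day 20 and was 41689 to 47133 on day 35. Other cells were present as well: the marker sum was 5747 to 14157 for Sertoli cells, 1679 to 6010 for peritubular myoid cells, 408 to 1844 for macrophages and 76.3 to 483 for endothelium. Of 3 epididymis markers Defb42 averaged 223 on day 0, and Lcn5 stayed at or under 29.3. In whole testis, fewer cells of a type and less RNA per cell cannot be told apart.

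All 15 tested probe sets changed over the 10 days on the values as deposited, in a test that 73.1% of all tested probe sets also passed. The test was limma's moderated F on log2(intensity + 7.84), and a call needed a Benjamini-Hochberg adjusted p below 0.05 together with a range of 1 or more between the day means on the log2 scale. The smallest range was 1.01, for Tdrd3 probe set 1434869_at (adjusted p = 0.00218), and the largest was 3.92, for Rnf17 probe set 1459275_at (adjusted p = 1.42e-14). One probe set of Tdrd3 missed the range in each of 4 other settings: 1451545_at with a common median (range 0.82), 1434869_at with a larger added constant (0.86) and without the second array of day 0 (0.89), and 1441496_at with a floor at the median (0.59). Because most probe sets of the array pass this test, passing it says little about these genes, and the days on which each gene moved carry the description that follows.

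**Figure D1:**
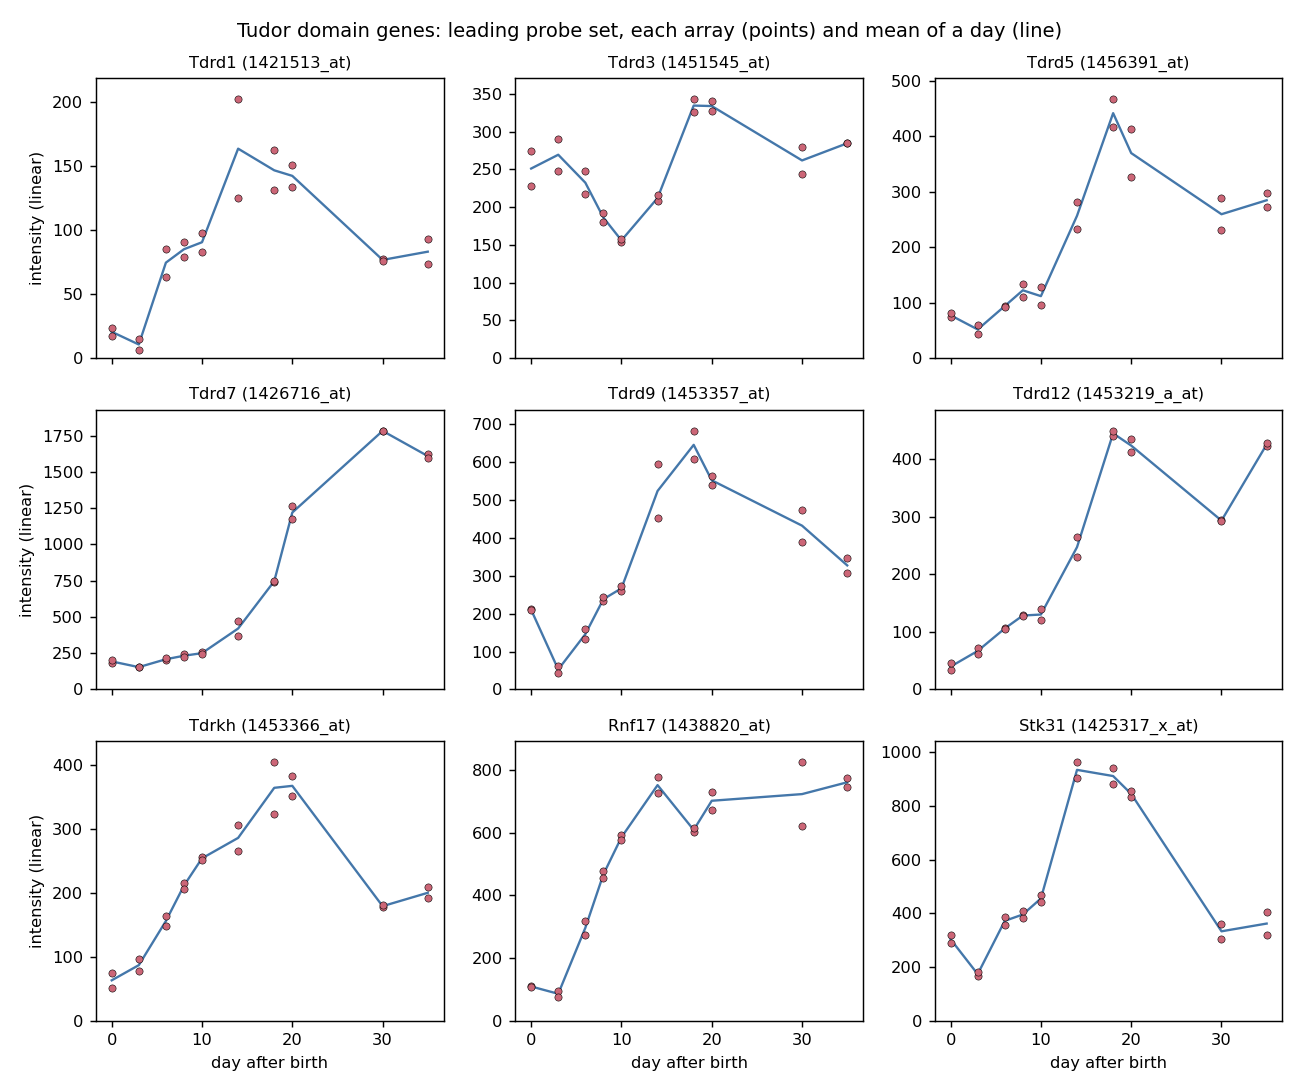
Intensity of the leading probe set of each of the 9 genes (the one with the highest mean log2 value) against days after birth. Points are single arrays, 2 a day, and lines join the day means. Tdrd7 climbed to 1782 on day 30, Tdrd5, Tdrd9 and Tdrd12 were highest on day 18, Tdrd1 and Stk31 on day 14, and Tdrd3 had its lowest mean on day 10.

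The first group of members acts in making piRNAs or in silencing transposons with them. Tdrd1 binds the PIWI protein Piwil2 and is needed in mice to keep LINE-1 transposons silent. Its intensities were 23.6 and 17.4 on day 0, 15.01 and 6.12 on day 3, 63.5 and 85.5 on day 6, 90.7 and 79.1 on day 8, and 97.9 and 82.9 on day 10. They were 202 and 125 on day 14, 162 and 131 on day 18, 133 and 151 on day 20, 77.5 and 75.7 on day 30, and 73.2 and 92.8 on day 35. Both arrays of day 3 lay below those of every other day, and the first array of day 14 stood above all others. Tdrd1 averaged 84.9 ± 8.20 on day 8, against 20.5 ± 4.43 on day 0 (SD, n = 2 each), a log2 difference of 1.72 ± 0.26 (SE; limma adjusted p = 0.000119). The mean of day 14 was 163 ± 54.7, and its arrays overlapped those of days 18 and 20. On day 35 Tdrd1 averaged 83.0 ± 13.8, against 142 ± 12.5 on day 20, and this log2 difference of -0.73 ± 0.26 did not reach the fold that a call needs.

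Tdrd9 is a helicase that works with the nuclear PIWI protein Piwil4 in silencing LINE-1 in fetal germ cells. Its intensities were 211 and 209 on day 0, 61.2 and 44.2 on day 3, 159 and 133 on day 6, 233 and 244 on day 8, and 260.3 and 274 on day 10. They were 595 and 453 on day 14, 684 and 608 on day 18, 541 and 564 on day 20, 474 and 391 on day 30, and 308 and 348 on day 35. Both arrays of day 3 lay below those of every other day, and those of day 18 lay above every other day. From day 3 to day 18 each day's mean was above that of the day before, and the arrays of days 14 and 20 overlapped. Tdrd9 averaged 524 ± 100.2 on day 14, against 238 ± 7.56 on day 8, a log2 difference of 1.10 ± 0.15 (limma adjusted p = 1.91e-05). Without the first array of day 14 the difference was 0.91, under the fold that a call needs. On day 35 it averaged 328 ± 28.3, against 552 ± 15.9 on day 20 (log2 difference -0.74 ± 0.15, not called).

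Tdrd12, also helicase-like, binds Piwil2 and takes part in secondary piRNA production in the mouse. Its intensities were 32.9 and 46.4 on day 0, 72.4 and 61.4 on day 3, 107 and 105 on day 6, 130.1 and 127 on day 8, and 140.4 and 120.0 on day 10. They were 265 and 229 on day 14, 440.2 and 450.2 on day 18, 435 and 413 on day 20, 294 and 293 on day 30, and 423 and 429 on day 35. Day 0 was the lowest day and the arrays of day 3 lay above it, where those of Tdrd1 and Tdrd9 lay below. Tdrd12 averaged 128 ± 2.37 on day 8, against 39.7 ± 9.54 on day 0, a log2 difference of 1.54 ± 0.14 (limma adjusted p = 3.33e-07). On day 35 it averaged 426 ± 3.68, against 424 ± 15.9 on day 20, and the arrays of the 2 days overlapped. Day 30 lay below both, with a mean of 294 ± 0.794.

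Tdrkh is anchored to mitochondria and supports the trimming of piRNA ends by Pnldc1. Its intensities were 51.6 and 74.7 on day 0, 96.3 and 77.4 on day 3, 147 and 164 on day 6, 216 and 206 on day 8, and 256 and 251 on day 10. They were 306 and 265 on day 14, 404 and 323 on day 18, 351 and 382 on day 20, 177 and 181 on day 30, and 191 and 208 on day 35. Up to day 14 no 2 neighbouring days overlapped and each was above the one before. Tdrkh averaged 211 ± 6.62 on day 8, against 63.2 ± 16.3 on day 0, a log2 difference of 1.64 ± 0.16 (limma adjusted p = 4.35e-07). The days after that differed by less than the call's fold, at 0.42 ± 0.16 for day 14 against day 8 and 0.36 ± 0.16 for day 20 against day 14. The mean was 199.8 ± 11.9 on day 35, against 367 ± 22.1 on day 20 (log2 difference -0.85 ± 0.16, not called).

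The second group is known for the chromatoid body. Tdrd5 is needed in mice for the assembly of that body and for silencing LINE-1. Its intensities were 73.8 and 80.4 on day 0, 44.2 and 58.9 on day 3, 94.7 and 92.8 on day 6, 109.9 and 134 on day 8, and 94.9 and 128 on day 10. They were 281 and 232 on day 14, 467 and 416 on day 18, 327 and 413 on day 20, 231 and 288 on day 30, and 272 and 297 on day 35. Day 18 lay above every other day without overlap, and the arrays of days 14, 30 and 35 overlapped. On the first array of day 18 alone, whose labels do not conflict, Tdrd5 (467), Tdrd9 (684) and Tdrd12 (440.2) also stood above every array of the other days. Tdrd5 averaged 257 ± 34.4 on day 14, against 122 ± 17.3 on day 8, a log2 difference of 1.02 ± 0.18 (limma adjusted p = 0.000299). This call sat at the threshold: the difference was 0.98 with arrays set to a common median, 0.95 with a larger added constant, and 0.89 without the first array of day 8 or without that of day 14.

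Tdrd7 remodels the chromatoid body and acts outside the germ line too, in the lens. Its probe set 1426716_at read 181 and 205 on day 0, 151 and 156 on day 3, 202 and 214 on day 6, 244 and 220.5 on day 8, and 258 and 242 on day 10. It read 471 and 369 on day 14, 742 and 750.1 on day 18, 1262 and 1177 on day 20, 1784 and 1779 on day 30, and 1625 and 1592 on day 35. From day 14 to day 30 each day lay above the one before it with no overlap, and day 35 lay just under day 30. Tdrd7 averaged 1219 ± 60.0 on day 20, against 419.7 ± 72.4 on day 14, a log2 difference of 1.53 ± 0.11 (limma adjusted p = 5.97e-10). It averaged 1609 ± 23.3 on day 35, against 1219 ± 60.0 on day 20, with a log2 difference of 0.40 ± 0.11 that was not called. The other Tdrd7 probe set, 1459216_at, did not pass the filter, with day means between 0.434 on day 3 and 21.8 on day 18, and it was not tested. Tdrd6, also a chromatoid body protein on the list, has no value here.

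Rnf17, also named TDRD4, marks a germ cell granule of its own, and mice without it stop at the round spermatid. It had 4 probe sets. The leading one, 1438820_at, read 112 and 107 on day 0, 96.0 and 76.2 on day 3, 274 and 319 on day 6, 478 and 456 on day 8, and 593 and 578 on day 10. It read 777 and 727 on day 14, 603 and 615 on day 18, 731 and 673 on day 20, 826 and 620.4 on day 30, and 775 and 747 on day 35. From day 14 on its day means ran from 609 on day 18 to 761 on day 35. Day 18 lay below day 14 without overlap, and the arrays of days 14, 30 and 35 overlapped. The mean was 467 ± 15.9 on day 8, against 109 ± 3.99 on day 0, a log2 difference of 2.02 ± 0.12 (limma adjusted p = 8.60e-10). Probe sets 1425709_at and 1425708_at rose by a like amount over the same days, with log2 differences of 1.81 ± 0.23 and 1.76 ± 0.29.

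The fourth Rnf17 probe set, 1459275_at, had another course. It read 76.0 and 88.4 on day 0, 23.7 and 29.3 on day 3, 51.8 and 59.7 on day 6, 91.9 and 75.4 on day 8, and 126 and 127 on day 10. It read 441 and 337 on day 14, 493 and 503 on day 18, 489 and 531 on day 20, 251 and 231 on day 30, and 266 and 306 on day 35. Its arrays of days 0 and 8 overlapped, where the other 3 probe sets of the gene had risen. It averaged 389 ± 73.6 on day 14, against 83.7 ± 11.7 on day 8, a log2 difference of 2.11 ± 0.16 (limma adjusted p = 4.68e-09). Probe set 1425708_at took yet another course after day 14, with a mean of 84.4 ± 18.5 on day 20, against 172 ± 16.5 on day 14. Its log2 difference of -0.97 ± 0.29 lay just under the call's fold.

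The difference between 2 probe sets of 1 gene was tested over the days with the same F test, for every pair of tested probe sets on the array. Of 24034 such pairs, 53.4% were called, so unlike courses of 2 probe sets are common on this array. Among the members 8 of 10 pairs were called. They were 5 of the 6 pairs of Rnf17 and all 3 pairs of Tdrd3. The 2 Rnf17 probe sets whose courses were not called different were 1425709_at and 1438820_at (adjusted p = 0.130). Probe set 1438820_at exceeded 1459275_at by 2.38 on the log2 scale on day 8 and by 0.29 on day 18, a quantity that holds their unequal affinity and is given only for its change. This test was chosen after the values had been seen, and which transcripts the probe sets detect is not known here.

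**Figure D2:**
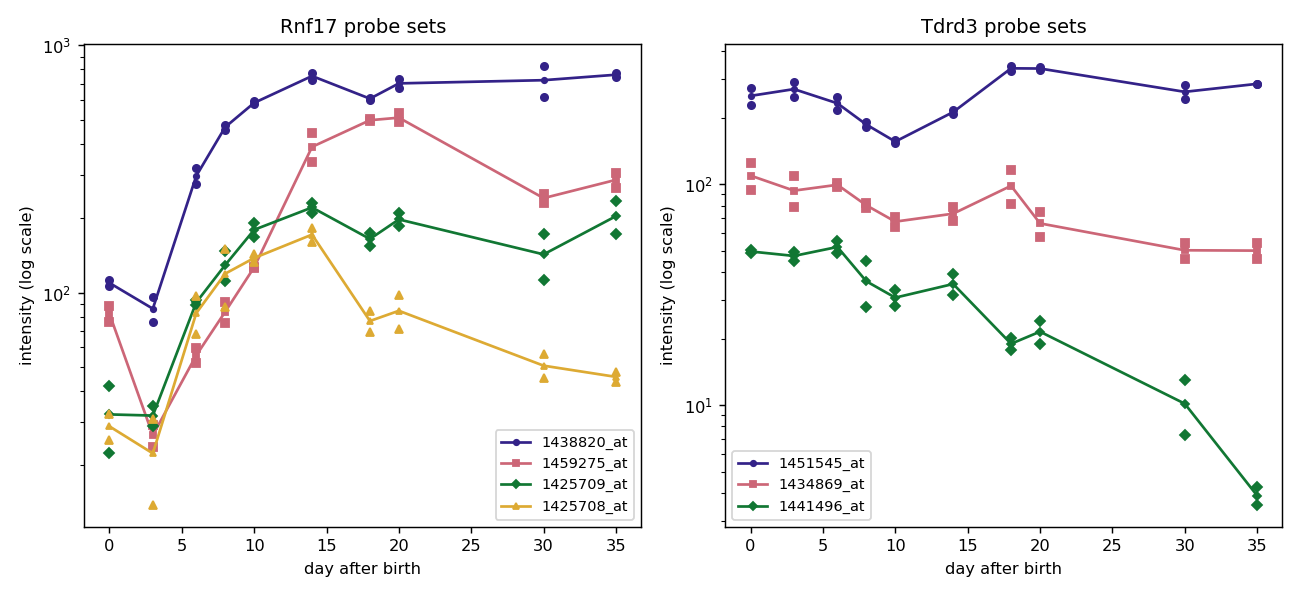
Intensity on a log axis against days after birth for the 4 probe sets of Rnf17 and the 3 of Tdrd3. Points are single arrays and lines join day means. Rnf17 1459275_at dips to 26.5 on day 3, Rnf17 1425708_at is at 84.4 on day 20, and Tdrd3 1441496_at is at 3.89 on day 35.

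Stk31 joins a Tudor domain to a kinase domain and is found with the PIWI protein Piwil1 in the mouse testis. Its probe set 1425317_x_at read 318 and 289 on day 0, 166 and 181 on day 3, 358 and 386 on day 6, 383 and 408 on day 8, and 467 and 443 on day 10. It read 964 and 904 on day 14, 881 and 941 on day 18, 835 and 854 on day 20, 361 and 305 on day 30, and 406 and 318 on day 35. Days 14, 18 and 20 stood above all other days, and days 30 and 35 were back among the values of days 0 to 8. The mean was 934 ± 41.9 on day 14, against 396 ± 17.5 on day 8, a log2 difference of 1.22 ± 0.11 (limma adjusted p = 1.18e-07). It was 362 ± 62.3 on day 35, against 845 ± 13.7 on day 20, a log2 difference of -1.22 ± 0.11 (limma adjusted p = 5.40e-08). The second probe set, 1454138_a_at, gave 1.26 ± 0.12 and -1.30 ± 0.12 for these comparisons. The courses of the 2 Stk31 probe sets were not called different (adjusted p = 0.873), with a range of 0.31 in their log2 difference over the days. The suffix x marks a probe set that may also bind other transcripts.

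Tdrd3 is made in most cell types. It reads methylated arginine on histones and binds topoisomerase Top3b. Its leading probe set, 1451545_at, read 274 and 228 on day 0, 290.4 and 248 on day 3, 248 and 217 on day 6, 192 and 181 on day 8, and 154 and 158 on day 10. It read 208 and 216 on day 14, 343 and 326 on day 18, 328 and 340.2 on day 20, 280.2 and 244 on day 30, and 284 and 285 on day 35. The lowest day was day 10, a day on which the other leading probe sets were above their own lowest, and the means differed by at most 2.15-fold. None of the pairs of days tested reached a log2 difference of 1 for this probe set. Probe set 1434869_at averaged 50.02 ± 6.17 on day 35, its lowest day, against 109 ± 21.7 on day 0, its highest. Probe set 1441496_at was dim, with 3.89 ± 0.507 on day 35, its lowest day, against 52.0 ± 4.81 on day 6, its highest. Its log2 difference for day 35 against day 20 was -1.32 ± 0.30 (limma adjusted p = 0.00192). That call ended with a larger added constant (-0.75), with a floor at the median (0) and in a fit to the 4 arrays of those days (adjusted p = 0.0510).

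Day 8 against day 0 covers the return of germ cells to division. Here 6 of 15 tested probe sets, of the 4 genes Tdrd1, Tdrd12, Tdrkh and Rnf17, rose and 0 fell. Over the array, 2.45% of tested probe sets rose and 2.42% fell. The median log2 difference was 0.38 for the members, against -0.03 for all tested probe sets. Tdrd3, Tdrd5, Tdrd7, Tdrd9 and Stk31 had log2 differences between -0.41 and 0.61 and were not called. Of these, Tdrd5 (0.61), Stk31 1425317_x_at (0.38) and Tdrd3 1451545_at (-0.41) passed the adjusted p and not the fold. Beside this, the germ cell marker sum was 4080 to 4377 on day 8, against 2012 to 2043 on day 0, and that of 4 spermatogonial markers was 1395 to 1438, against 279 to 311. The part of cell numbers in the rise of these 4 genes was not tested. With arrays set to a common median, 1225 probe sets of the array rose and 760 fell, against 913 and 903 as deposited, and the members' count was 6 again.

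Day 14 against day 8 spans the entry into meiosis, and 5 probe sets of 4 genes rose (Tdrd5, Tdrd9, Stk31 and Rnf17 1459275_at) while 0 fell. The shares over the array were 3.86% and 2.10%. The median was 0.82 for the members, against -0.02 for all. Tdrd1, Tdrd7 and Tdrd12, with 0.85 ± 0.26, 0.82 ± 0.11 and 0.90 ± 0.14, passed the adjusted p (0.0305, 1.01e-05 and 0.000127) and not the fold. Without the second array of day 14, Tdrd1 (1.18) and Tdrd12 (1.003) were called too, 7 probe sets in all. Without the first array of day 14 the count was 3, as Tdrd5 and Tdrd9 missed the fold. The meiotic marker sum was 6660 to 7217 on day 14, against 1177 to 1280 on day 8, and its part in these rises was not tested.

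Day 20 against day 14 is the step in which pachytene cells accumulate and the first spermatids form. Among the members Tdrd7 alone met both the adjusted p and the fold, as a rise, and 0 fell, where 14.7% of all tested probe sets rose and 12.0% fell. Tdrd12 (0.76 ± 0.14, adjusted p = 0.000226), Tdrd3 1451545_at (0.64 ± 0.12, 0.000268), Tdrd5 (0.51 ± 0.18, 0.0243) and Rnf17 1459275_at (0.40 ± 0.16, 0.0448) passed limma's adjusted p and not the fold. Rnf17 1425708_at did so in the other direction, with -0.97 ± 0.29 (adjusted p = 0.00885). The members' median was -0.10, against -0.04 for all. Its sign followed the scaling: it was 0.04 after quantile normalization and -0.31 with a common median, where the medians of all were -0.12 and -0.21. The common median also turned the balance over the array, with 4460 up and 6815 down, against 5467 and 4492 as deposited. Tdrd7 rose under each scaling. Rnf17 1425708_at was called lower with the common median (-1.18), with a smaller constant (-1.02), with a floor (-1.04), and without the second array of day 14 (-1.07) or of day 20 (-1.18), which made the count 2.

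Day 35 against day 20 sets a testis with many spermatids against one with few. Here 0 members rose and 3 probe sets fell, both of Stk31 and Tdrd3 1441496_at, while 6.71% of all tested probe sets rose and 7.28% fell. The median was -0.73 for the members, against -0.17 for all, and 4 of 15 probe sets had a difference above 0. Tdrkh (-0.85), Rnf17 1459275_at (-0.82) and 1425708_at (-0.77), Tdrd9 (-0.74) and Tdrd1 (-0.73) passed the adjusted p and not the fold, and so did Tdrd7 in the other direction (0.40). The meiotic marker sum was 4555 to 4622 on day 35, against 7296 to 7821 on day 20, and the spermatid sum was 41689 to 47133, against 456 to 486. How far the share of spermatids in the RNA sets the lower values was not tested.

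The values of day 3 led to a further comparison, chosen after they had been seen. Day 3 against day 0 had few calls over the array, 0.0885% of tested probe sets higher and 0.220% lower, or 33 and 82 probe sets (56 and 76 with a common median). Of the members 0 rose and 2 fell. Tdrd9 averaged 52.7 ± 12.0 on day 3, against 210.3 ± 1.60 on day 0, a log2 difference of -1.86 ± 0.15 (limma adjusted p = 1.93e-06). Rnf17 1459275_at averaged 26.5 ± 3.91, against 82.2 ± 8.74, a log2 difference of -1.39 ± 0.16 (limma adjusted p = 5.14e-05). The probe sets of Stk31 had -0.78 ± 0.11 and -0.74 ± 0.12, which passed the adjusted p (0.000936 and 0.00298) and not the fold. Tdrd12 had 0.66 ± 0.14 in the other direction (adjusted p = 0.0283). Both falls were called under all scalings and whichever single array was left out. The germ cell marker sum was 1411 to 1541 on day 3, against 2012 to 2043 on day 0, the meiotic sum was 259 to 260, against 403 to 422, and the spermatogonial sum was 374 to 411, against 279 to 311. Of single germ cell markers, Sycp3, of the meiotic chromosome axis, had -0.81 ± 0.10 (limma adjusted p = 9.42e-05), Dazl -0.51 ± 0.12 (0.0441) and Ddx4 -0.29 ± 0.10 (0.215). The meiotic markers Sycp1, Dmc1, Spo11 and Piwil1 had differences from -0.54 (Dmc1) to -0.24 (Spo11). They did not pass the adjusted p (0.249 to 0.834). Among markers of other cells, Cyp11a1 of Leydig cells had -1.45 ± 0.16 (2.94e-05) and Alas2 of red blood cells -1.99 ± 0.38 (0.00948). The Leydig cell marker Cyp17a1 had -0.71 ± 0.12 (0.00354). Star (-0.29 ± 0.19, 0.725) and Hsd17b3 (-0.12 ± 0.13, 0.916), also of Leydig cells, did not pass the adjusted p. Myh11 (0.88 ± 0.16, 0.00713) and Acta2 (0.33 ± 0.08, 0.0405) of myoid cells and Amhr2 of Sertoli cells (0.48 ± 0.08, 0.00260) were higher. The other Sertoli markers Sox9, Gata4, Wt1, Amh and Clu had differences from 0.03 (Amh) to 0.49 (Wt1). Neither these nor the myoid markers Cnn1 (0.27) and Des (-0.04) passed the adjusted p. Marker sums of other cells differed too: the sum of 4 Leydig cell markers was 2995 to 3163, against 4794 to 4932, and that of 2 blood markers was 51.7 to 56.7, against 212 to 234. The blood sum was mostly Alas2, as Hba-a1 averaged 5.29 on day 3 and 5.51 on day 0. The part of these marker differences in the falls of Tdrd9 and Rnf17 1459275_at was not tested.

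**Figure D3:**
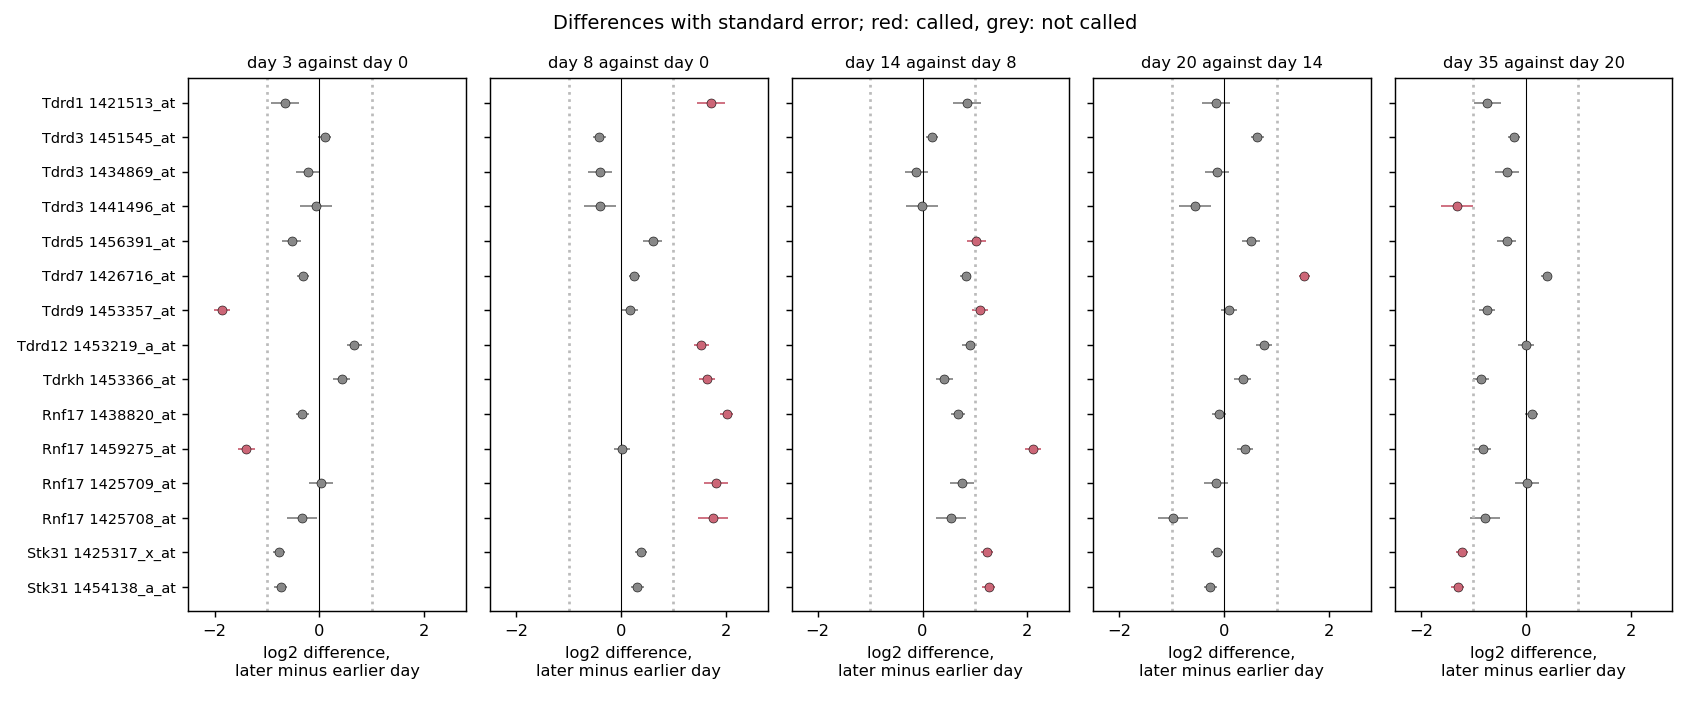
Log2 difference, later minus earlier day, with its standard error, for each tested probe set of the members in each comparison. Called differences are red and the others grey. For day 8 against day 0 the called points are all to the right, up to 2.02, and for day 3 against day 0 the 2 called points lie at -1.86 and -1.39.

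The bases before the RefSeq start sites are shown for Tdrd1, Tdrd9, Tdrd5 and Stk31, since 3 of them rose together on day 14, while Tdrd1 was already higher on day 8, and Tdrd9 fell on day 3. The windows hold 250 bases, run 5′ to 3′ on the strand of the gene, and come from RefSeq on GRCm38.p6. Of the members 8 genes matched the table, with 14 windows. Tdrd1 and Stk31 have several windows, and for each of them the window with the most matches is shown. Capitals mark 3 motifs searched on both strands, the NRF1 core GCGCANGC, the E-box CACGTG that factors of the MYC family read, and the MYB half-sites CAACNG and TAACNG, for the family of the meiotic regulator Mybl1. The motifs were chosen with the sequences in view.
Tdrd1, chr19:56826025-56826274, plus strand: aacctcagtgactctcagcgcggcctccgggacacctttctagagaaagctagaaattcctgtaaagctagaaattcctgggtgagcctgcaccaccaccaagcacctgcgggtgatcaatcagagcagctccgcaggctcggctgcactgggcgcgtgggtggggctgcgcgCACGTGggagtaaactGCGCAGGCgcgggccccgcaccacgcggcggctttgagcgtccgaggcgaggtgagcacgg
Tdrd9, chr12:111971309-111971558, plus strand: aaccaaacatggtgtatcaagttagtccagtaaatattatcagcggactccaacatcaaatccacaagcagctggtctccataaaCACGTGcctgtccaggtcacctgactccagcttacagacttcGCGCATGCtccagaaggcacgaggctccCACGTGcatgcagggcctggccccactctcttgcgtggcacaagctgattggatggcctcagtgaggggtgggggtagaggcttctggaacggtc
Tdrd5, chr1:156303349-156303598, minus strand: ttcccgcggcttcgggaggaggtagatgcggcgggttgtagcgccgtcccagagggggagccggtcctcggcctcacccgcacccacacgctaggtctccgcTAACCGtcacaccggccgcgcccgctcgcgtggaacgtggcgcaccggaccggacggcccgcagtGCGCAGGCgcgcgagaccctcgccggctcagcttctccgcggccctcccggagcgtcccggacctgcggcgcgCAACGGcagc
Stk31, chr6:49395354-49395603, plus strand: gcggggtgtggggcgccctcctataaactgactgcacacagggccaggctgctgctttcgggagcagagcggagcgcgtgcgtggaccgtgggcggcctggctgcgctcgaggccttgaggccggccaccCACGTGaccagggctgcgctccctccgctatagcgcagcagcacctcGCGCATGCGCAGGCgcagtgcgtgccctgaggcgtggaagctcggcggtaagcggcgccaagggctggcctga

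In these windows Tdrd1, Tdrd9 and Stk31 hold both an E-box and an NRF1 core, and Tdrd5 holds an NRF1 core and MYB half-sites. In the Tdrd1 window the E-box lies 77 to 72 bases before the start and the NRF1 core 61 to 54 bases before it. The 3 NRF1 matches of Stk31 overlap one another. Tdrd1 also has a window with an E-box alone and a window with no match. The windows of Tdrkh and Tdrd12, also called higher on day 8 against day 0, held a MYB half-site and neither other motif. Over all 14 windows, the NRF1 core was found in 6, of 5 genes, the E-box in 5, of 3 genes, and a MYB half-site in 6, of 4 genes. Windows of 1 gene overlap in Stk31, Tdrd1 and Tdrd12 and share matches. Of 32851 RefSeq windows of the same length, 8.30% held the NRF1 core, 6.02% the E-box and 43.1% a MYB half-site. The members' windows held 3 to 40 CG pairs, with a median of 20, against a median of 6 over all windows, and 10 of the 14 held more than 6. Among the 16542 windows with at least 6 CG pairs, the shares were 15.8%, 8.88% and 39.0%. That cut lies below the members' median of 20, so these shares are not matched to the members for CG pairs. The window of Tdrd3 held no match. These are matches of letters, with no binding measured here.

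**Figure D4:**
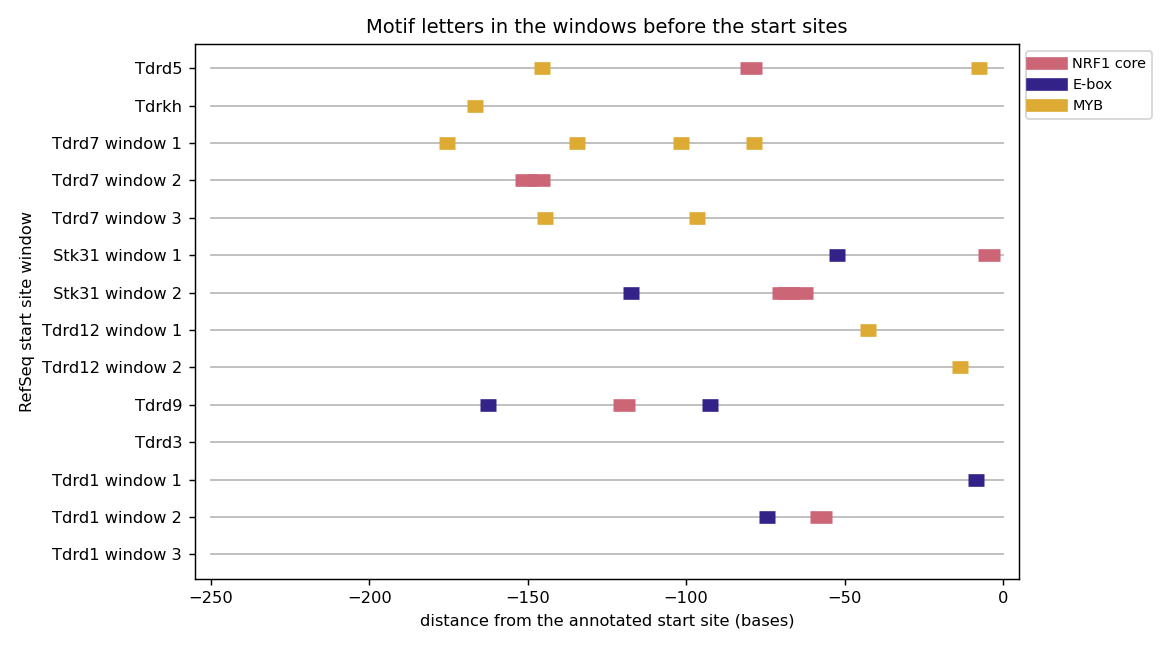
Matches to the 3 motifs by distance from the annotated start site, in bases, for the 14 RefSeq windows of 8 member genes, 1 line for each window. The E-box marks stand in windows of Tdrd1, Tdrd9 and Stk31, and the Tdrd3 window and 1 of the 3 Tdrd1 windows are empty.

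Genes known to work with the Tudor proteins were read from lists chosen with earlier results of these data known. Of 20 piRNA pathway partners, 18 were tested, each by its leading probe set, and Fkbp6 and Nanos2 had no probe set of their own. Ddx4, Dazl and Piwil1 of this list also served as cell markers above. On day 8 against day 0, 6 of 18 rose and 0 fell, with a median of 0.80, against -0.01 over 16428 genes. Over the array 2.45% of tested probe sets rose and 2.42% fell. The largest were Mov10l1, a helicase that feeds piRNA precursors (1.69 ± 0.12), and Henmt1, which methylates piRNA ends (1.54 ± 0.32). On day 14 against day 8, 2 rose: Piwil1, the PIWI protein of spermatocytes and spermatids (3.83 ± 0.17), and Mybl1 (2.03 ± 0.32). The other 16 were not called, and their list's median was 0.64, against -0.02. Over the array 3.86% of tested probe sets rose and 2.10% fell. On day 20 against day 14, 5 rose and 2 fell, the largest being Ddx25, a helicase of the chromatoid body (1.85 ± 0.14), and Pld6, an enzyme of the mitochondrial surface in piRNA production (1.77 ± 0.15). The median was 0.03, against 0.01, and over the array 14.7% of tested probe sets rose and 12.0% fell. None of the 18 was called for day 35 against day 20 (median -0.39, against -0.20), where 6.71% of tested probe sets rose and 7.28% fell. The largest there were Piwil4 (0.98 ± 0.46, limma adjusted p = 0.113) and Exd1 (-0.86 ± 0.22, 0.00357). Exd1, Piwil1, Piwil2, Mov10l1, Ddx4, Asz1, Gpat2, Pnldc1, Tex15, Tex19.1 and Dazl, all lower, passed the adjusted p and not the fold. Gtsf1 (0.58) did so in the other direction. None was called for day 3 against day 0 (median -0.46, against -0.02), where the shares were 0.0885% and 0.220%. In that last comparison Gtsf1 had -0.9995 ± 0.10 (limma adjusted p = 1.24e-05) and Henmt1 -0.85 ± 0.32 (0.305). Mael (-0.76), Piwil2 (-0.73), Gpat2 (-0.66), Dazl (-0.51) and Tex15 (-0.48) also passed the adjusted p and not the fold, as Gtsf1 did.

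Arginine methylation makes the marks that many of these Tudor domains bind. None of its 7 genes was called for day 8 against day 0, day 14 against day 8 or day 3 against day 0. The medians were 0.24, -0.10 and -0.03, against -0.01, -0.02 and -0.02 over all genes. Genes not called could still pass the adjusted p, such as Coprs on day 8 against day 0 (0.87 ± 0.08, limma adjusted p = 3.75e-07). On day 20 against day 14, Coprs, a partner of Prmt5, rose by 1.11 ± 0.08 and Wdr77, a subunit of the Prmt5 complex, fell by 1.09 ± 0.11. None was called for day 35 against day 20, with a median of -0.60, against -0.20 over all genes. Of 14 Tudor domain genes of all cells, none was called in the comparisons up to day 14. Their medians were 0.23 for day 8 against day 0 and 0.10 for day 14 against day 8, against -0.01 and -0.02 over all genes. Phf1, a Polycomb partner, rose by 1.92 ± 0.18 on day 20 against day 14. On day 35 against day 20, Sgf29, of the SAGA complex, rose by 2.94 ± 0.13, while Mtf2, of Polycomb (-1.26 ± 0.12), and Arid4b fell, and the list's median was -0.48. Among the 4 partners of Tdrd3, Fmr1 fell by 1.20 ± 0.11 on day 35 against day 20, and Top3b, Fxr1 and Fxr2 were not called in any comparison. Fxr1 passed the adjusted p and not the fold for day 20 against day 14 (0.79 ± 0.09, limma adjusted p = 2.95e-07). It did so too for day 35 against day 20 (0.89 ± 0.09, 9.25e-08), and its mean was 1068 on day 14 and 3438 on day 35. Fmr1 did so for day 14 against day 8 (0.43 ± 0.11, 0.00588) and day 20 against day 14 (-0.86 ± 0.11, 1.37e-06). Over the array, 2.45% of tested probe sets rose and 2.42% fell on day 8 against day 0. The shares were 3.86% and 2.10% for day 14 against day 8, and 14.7% and 12.0% for day 20 against day 14. They were 6.71% and 7.28% for day 35 against day 20, and 0.0885% and 0.220% for day 3 against day 0. At the shares up to day 14, lists this short would hold few or no calls. No count of these lists was tested as a difference from the members' counts.

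**Figure D5:**
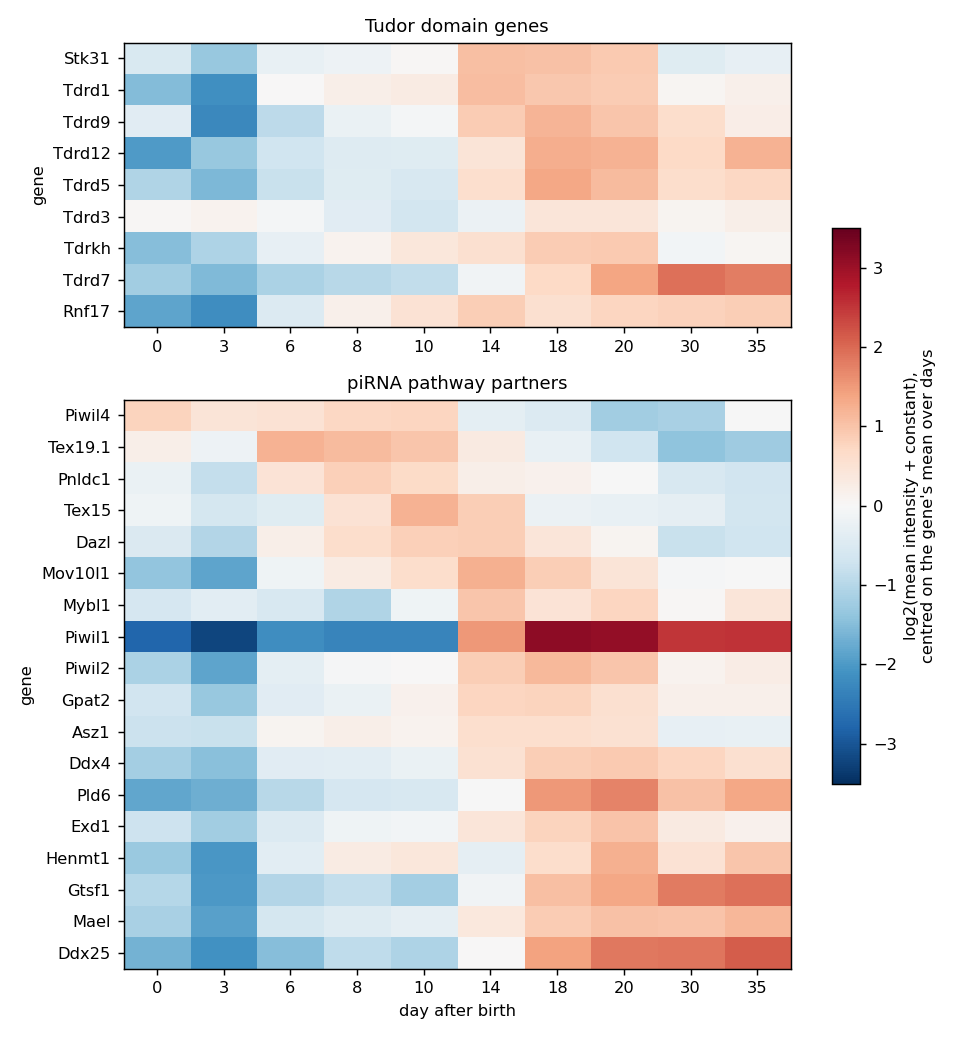
Log2 day means of the members (above) and of the 18 piRNA pathway partners tested (below), each centred on its own mean over the 10 days, with days from left to right and 1 gene a line. Tdrd1 and Tdrkh have their highest values on days 14, 18 and 20, and Tdrd7 is above it from day 18 on.

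The genes with the course most like each member were found by the root mean square distance between centred log2 day means over the 10 days, among 14991 genes. Each member was represented by its leading probe set, so for Rnf17 and Tdrd3 the distances hold for 1438820_at and 1451545_at alone. For Tdrd1 they were Mov10l1 (0.24) and Piwil2 (0.25), then Pcgf5 (0.34), where the median gene was 1.13 away. Piwil2 was also near Tdrd9 (0.36), after Avpr1a (0.31). For Tdrd5 the nearest were Myt1l (0.14) and Stambp (0.19), for Tdrd7 Agtpbp1 (0.16) and Epha10 (0.17), and for Tdrd12 Ttc21b (0.28) and Cnnm4 (0.29). Those of Tdrkh were Kbtbd8 (0.18) and Urb1 (0.22), those of Rnf17 Lrp8 (0.27) and Tspan33 (0.30), and those of Stk31 Zfp800 (0.25) and Slc43a2 (0.26). Tdrd3 was nearest to Dpp8 (0.10) and Prc1 (0.12). Among the members themselves, Tdrd5 and Tdrd12 were 0.35 apart and Tdrd1 and Tdrkh 0.40, while the member nearest to Tdrd3 was Stk31, at 0.75. With 10 days of 1 shared set of arrays, these distances describe the courses and carry no test.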

How the data were processed

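Each of the 20 arrays, of the 3′ expression type with 1 channel, measured total RNA from whole testis. Per the labels' protocols, Trizol was used for extraction, and a one-cycle kit for biotin labelling. The values are deposited as linear intensities, 1 for each probe set on each array, without detection calls. Their 2% trimmed mean is the same on all 20 arrays, and the summarising software is not given in the sources used. No further normalization was applied.

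The 64 control probe sets were left out. Gene symbols came from the platform annotation: 34945 probe sets carry 1 symbol, 932 several, and 9160 are not listed there. No probe set carried a member's symbol beside others. All 16 member probe sets matched RefSeq (GRCm38.p6) by Entrez identifier. Probe sets above the 40th percentile of their array on at least 2 arrays entered the tests (37292). Values were fitted as log2(intensity + 7.84), the constant being the pooled 20th percentile, so differences of dim probe sets depend on it. Day, a factor of 10 levels, was fitted to all arrays by lmFit of limma 3.58.1 (R 4.3.3), followed by eBayes with its trend option. The residual degrees of freedom were 10 and the prior ones 9.37. All tests were two-sided, and the Benjamini-Hochberg adjustment ran over all tested probe sets. Calls required adjusted p below 0.05 and a 2-fold change, a log2 difference of 1. Comparisons that share a day share its arrays and are not independent. The model was also run on simulated data, with independent noise around flat courses and day 8 raised in some probe sets. Those settings are simpler than the real data, and that run is not used as support here. Precision is limited by having 2 arrays for each day.

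All member probe sets are named whatever their change, with up to 3 genes of nearest course. The 2 partners of largest change in each comparison are given for the piRNA list, and the called genes for the other lists. Further piRNA partners, Coprs on day 8, the other partners of Tdrd3 and the cell markers were named to account for a list. The members, lists and motifs were chosen with earlier results of these data known. Day 3 against day 0 and the test of probe set pairs were added after the values had been seen. Replicate numbers do not pair the arrays: over 45 pairs of days, the deviations of same-numbered arrays correlated with r from -0.03 to 0.09. Python 3.11.15 and matplotlib 3.10.9 made the figures.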

Additional observations from a re-analysis of the deposited data

How the results depend on the processing

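The alternatives were a common median, quantile normalization, other constants, a floor, no filter, 1 probe set per gene, no trend, array weights, the replicate block, fits to the 4 arrays compared, and leaving out each array. With 1 probe set per gene, 9 members were called over the time course, 3 on day 14 against day 8, and 1 each on day 35 against day 20 and day 3 against day 0, since fewer probe sets were tested. The count of 6 for day 8 against day 0 was lower too, as Rnf17 1425709_at and 1425708_at, both among those called, were not tested. For day 20 against day 14 the count was 2, in place of 1, with a common median, a constant at the pooled 5th percentile and a floor, each adding Rnf17 1425708_at. Leaving out 1 array gave counts of 3 (without the first array of day 14) to 7 (without the second) for day 14 against day 8. It gave 1 to 2 for day 20 against day 14, 2 without the second array of day 14 or of day 20, and 14 to 15 for the time course, which was also 14 with a common median, a constant at the pooled 40th percentile and a floor; the probe set lost was each time one of Tdrd3. The other counts of called members stayed as they were whichever array was left out. Rnf17 1425708_at, not called for day 3 against day 0 (-0.33), was -0.75 without the first array of day 3 and turned to 0.0875 without the second; the cause was not tested. With the replicate block as a paired term, the counts of called members were 15, 6, 5, 1, 3 and 2 for the time course and the comparisons of days 8, 14, 20, 35 and 3, and 8 for the probe set pairs, and no member's call changed. Differences that were not called could change sign. With quantile normalization, Tdrd1 and Rnf17 1425709_at turned to 0.0448 and 0.0369 for day 20 against day 14, and Tdrd3 1441496_at to 0.0147 for day 3 against day 0. With a common median, Tdrd9 turned to -0.13 for day 20 against day 14 and Tdrd3 1441496_at to 0.0564 for day 3 against day 0, and with a floor Rnf17 1425709_at turned to -0.14 in that comparison. Leaving out 1 array spread 10 further uncalled differences across 0. These were Rnf17 1459275_at for day 8 against day 0 (-0.11 to 0.15), Tdrd3 1441496_at for day 14 against day 8 (-0.29 to 0.27), and for day 20 against day 14 Tdrd1 (-0.49 to 0.18), Tdrd3 1434869_at (-0.31 to 0.0296) and Tdrd9 (-0.11 to 0.28). They were also Tdrd12 (-0.0306 to 0.0444) and Rnf17 1425709_at (-0.19 to 0.25) for day 35 against day 20, and for day 3 against day 0 Tdrd3 1451545_at (-0.0272 to 0.23), Tdrd3 1434869_at (-0.43 to 0.00176) and Rnf17 1425709_at (-0.33 to 0.39). Outside the arrays left out, 781 of the recomputed values kept their direction and side of the threshold, 6 changed sign without a call, 3 passed the threshold and 5 fell short of it. Depth cannot be judged without detection calls, and the dimmest probe sets, Tdrd7 1459216_at and Tdrd3 1441496_at, rest on values near the added constant.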
